A study of Homo sapiens with 24 samples.

Results

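The RNA bound to AGO2 was compared between LNCaP cells given a plasmid for miR-130a and LNCaP cells given a plasmid for miR-203. The comparison used 6 of the 24 arrays in the series, 3 titled as AGO2-bound RNA after miR-130a and 3 titled as AGO2-bound RNA after miR-203, and each gene was read from its brightest probe set, judged by the mean of all 24 arrays. LNCaP is an established line from a human prostate carcinoma that keeps luminal features. All cells received 2.5 µg of plasmid by nucleofection, AGO2 and its RNA were co-immunoprecipitated with an antibody to AGO2, and 2 µg of RNA was read on an Affymetrix human genome array. The companion arrays, 3 for each transfection, hold total RNA of the same kinds of transfected cell. Neither group is an untreated state: both carried a plasmid and a raised microRNA, so a difference can come from either side. Replicates are termed biological in the labels, with no word on separate cultures, and p-values therefore reflect only the scatter of these 6 arrays.

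AGO2 is the Argonaute protein that carries a microRNA in the silencing complex. The microRNA guides the complex to messenger RNAs, mainly through pairing of its seed, the bases near its 5′ end, and the bound transcript is then repressed or degraded. Co-immunoprecipitation of AGO2 therefore enriches transcripts that are held in the complex at the time of lysis, and it does so for every microRNA of the cell, not for the introduced one alone. The amount of a transcript recovered also follows how much of it the cell holds, which is why total RNA values are given for many genes. Where an AGO2-bound difference is given alone, it may follow a difference in total RNA. In cultured epithelial cells, foreign nucleic acid can set off interferon production, and interferon then raises a known set of antiviral genes.

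The introduced microRNAs are encoded at different loci and have different seeds. The precursor of miR-130a gives the arms miR-130a-5p and miR-130a-3p, and that of miR-203 gives miR-203a-5p and miR-203a-3p; the labels do not say which arm was intended. The mature sequences of 3 of these 4 arms are RefSeq's, on GRCh38.p14, with the seed (bases 2 to 8) in capitals, and are shown because the groups differ in the microRNA introduced. In the genome miR-130a-5p lies at chr11:57641212-57641233, miR-203a-5p at chr14:104117431-104117455 and miR-203a-3p at chr14:104117469-104117490, all on the plus strand.
hsa-miR-130a-5p: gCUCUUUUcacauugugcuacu
hsa-miR-203a-5p: aGUGGUUCuuaacaguucaacaguu
hsa-miR-203a-3p: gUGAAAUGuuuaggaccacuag

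Values are the deposited log2 expression levels. The lowest value of an array was 2.344895 on all miR-130a arrays and 2.346843 on all miR-203 arrays, which points to separate normalization runs, so run and transfection cannot be told apart. Between 40.4% and 41.0% of probe sets lay within 0.05 of that floor on the 6 arrays. Replicates of a group correlated with r between 0.985 and 0.990 over 6782 genes, a description across genes, which are not independent replicates. The gap between the 3′ and 5′ probe sets of GAPDH, a sign of RNA or cDNA length, was 1.20 to 1.30 after miR-130a and 0.60 to 0.89 after miR-203, without overlap; that of ACTB overlapped between the groups. The 18S ribosomal RNA probe set read 7.54 to 8.14 after miR-130a and 8.08 to 9.05 after miR-203. Those values moved with every difference given here, and their part in the results was not tested. Of 10 luminal prostate markers on the array, only TRPM8 was at the floor on all 6 arrays, and the summed log2 level of the list was 73.4 to 74.2 after miR-130a and 71.7 to 73.2 after miR-203. Of 10 markers of basal cells and other prostate lines, 6 were at the floor throughout (KRT5, CAV1, LAMB3, AXL, S100A2 and SPARC), with sums of 25.5 to 25.6 and 25.4 to 26.0. The arrays thus carried the luminal markers that the LNCaP label implies. In bulk RNA, fewer cells of a state and less RNA per cell cannot be told apart.

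AGO2-bound RNA differed between the transfections across much of the array. Of 6782 genes tested, 3720 (54.9%) passed an adjusted p of 0.05 in limma, 1976 (29.1%) higher after miR-130a and 1744 (25.7%) lower after miR-130a. At least a 2-fold difference was reached by 831 of the former and 743 of the latter, and at least a 16-fold one by 14 (0.206%) and 7 (0.103%). The 3 arrays of each group did not overlap at 2220 genes (32.7%) with the miR-130a arrays on top and at 2032 genes (30.0%) with the miR-203 arrays on top. With such a background, a list of genes stands apart from the rest of the array only where its share of calls is far from these percentages. Total RNA differed less in size: the median absolute log2 difference over all genes was 0.27 in total RNA and 0.50 in AGO2-bound RNA, and 405 genes passed with at least a 2-fold difference in total RNA against 1574 in AGO2-bound RNA. In total RNA 2932 genes (43.2%) were called, 1554 (22.9%) higher and 1378 (20.3%) lower after miR-130a. The balance was otherwise at 2-fold or more, with 323 higher and 82 lower, and quantile normalization turned the majority to 1425 higher and 1671 lower.

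The genes highest after miR-130a relative to miR-203 were of 2 kinds, interferon-response genes and transcripts with little or no counterpart in total RNA. CCL5, a chemokine that draws T cells, read 8.25, 9.43 and 8.77 on the miR-130a arrays and 3.23, 5.09 and 3.24 on the miR-203 arrays. One miR-203 array stood above the other two for CCL5, but the groups lay far apart, with a log2 difference of 4.96 ± 0.50 (SE, adjusted p = 7.35e-05). CXCL10, a chemokine ligand of CXCR3, read 9.47, 9.82 and 9.81 against 5.31, 6.09 and 4.90, a difference of 4.27 ± 0.28. The gap for CXCL10 was larger than the spread of either group (adjusted p = 1.01e-05). IFIT1, an antiviral protein that binds foreign RNA, read 10.30, 10.54 and 10.32 against 6.23, 6.80 and 5.51. IFIT1 differed by 4.20 ± 0.29 (adjusted p = 1.16e-05), and its relative IFIT2 by 4.24 ± 0.24 (adjusted p = 6.3e-06). RSAD2, the antiviral enzyme viperin, read 6.29, 6.86 and 6.44 after miR-130a and 2.40 on each miR-203 array, just above the floor. The SD of its miR-203 values was 0.000, so its difference of 4.13 may be a lower limit. CXCL11, another CXCR3 ligand, read 6.44, 6.88 and 6.71 against 2.64, 2.74 and 2.47. All of these interferon-response transcripts were also higher in total RNA, CCL5 by 3.58, CXCL10 by 3.37, CXCL11 by 4.69, RSAD2 by 2.50, IFIT2 by 2.24 and IFIT1 by 1.77.

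Of the other leading transcripts after miR-130a, all but CCNB1 were not called or were called the other way in total RNA. Over all genes tested, only 22.9% were higher in total RNA after miR-130a. NUDT9, an ADP-ribose hydrolase, read 9.54, 10.03 and 9.87 in AGO2-bound RNA after miR-130a against 5.27, 5.32 and 5.58 after miR-203. The NUDT9 difference was 4.42 ± 0.17 (adjusted p = 2.07e-06), while total RNA differed by -0.93 (adjusted p = 0.000227). RNF7, the RING subunit of cullin ubiquitin ligases, read 10.31, 10.31 and 10.12 against 6.09, 5.90 and 6.35, a difference of 4.13 ± 0.15 with -1.42 in total RNA. HMGN1, a protein that binds nucleosomes, read 12.65, 12.46 and 12.52 against 8.63, 8.21 and 8.42. For HMGN1 total RNA lay between 9.74 and 9.88 on all 3 miR-130a arrays and between 9.76 and 9.79 on all 3 miR-203 arrays. GCLM, the modifier subunit of glutamate-cysteine ligase in glutathione synthesis, read 9.76, 10.49 and 9.69 against 5.77, 5.93 and 6.22, and total RNA differed by 0.02 (adjusted p = 0.89). ATP5F1E, the epsilon subunit of mitochondrial ATP synthase, differed by 4.20 ± 0.24 and ACAA1, a peroxisomal thiolase, by 3.93 ± 0.16, with total RNA at -0.31 and -0.63. NMU, which encodes the neuropeptide neuromedin U, had the widest spread of the leading genes, at 9.50, 8.51 and 7.47 against 5.30, 3.57 and 3.52. The arrays numbered 1 were the highest of their group for NMU on both sides, and the groups still did not overlap (4.36 ± 0.58, adjusted p = 0.000342). CCNB1, the cyclin of mitotic entry, showed the same order at 10.60, 10.17 and 9.64 against 7.23, 5.99 and 5.92, and CARHSP1, an RNA-binding protein, differed by 3.59 ± 0.25.

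Of the 15 transcripts highest after miR-203 relative to miR-130a, 9 were not called in total RNA. Over all genes tested 43.2% were called in total RNA, so 9 of 15 lies near the share of all genes. GTF2H5, the smallest subunit of the transcription and repair factor TFIIH, read 5.32, 5.48 and 6.17 after miR-130a and 11.34, 11.69 and 11.08 after miR-203. This was the largest difference of the comparison among genes measured in both groups, -5.71 ± 0.25 (adjusted p = 2.76e-06), and total RNA differed by 0.45 in the other direction. ETHE1, a mitochondrial sulfur dioxygenase, read 3.54, 3.39 and 3.41 against 8.76, 8.94 and 7.96, a difference of -5.11 ± 0.24 with 0.20 in total RNA. PEX16, a protein of peroxisome membrane assembly, read 4.10, 3.97 and 3.81 against 8.67, 8.97 and 8.36, and both further PEX16 probe sets differed in the same direction by -4.78 and -3.11. TFDP2, the dimer partner of E2F factors, read 3.29, 3.47 and 3.54 against 7.32, 8.36 and 7.70. Its second probe set differed by -2.20, less far than the -4.36 of the first. PSMB6, a catalytic subunit of the proteasome, read 8.31, 8.17 and 8.13 against 11.96, 12.08 and 11.51. TALDO1, the transaldolase of the pentose phosphate pathway, read 8.61, 8.56 and 8.81 against 12.12, 12.51 and 12.15. Both of these genes lay above 8 on every array. MNAT1, another TFIIH subunit, differed by -3.54 ± 0.15, so that 2 TFIIH subunits stood among the 15 largest. GTF2H1, a further subunit named here after its values were seen, went the other way in AGO2-bound RNA by 2.23 ± 0.17. ARPC1B of the Arp2/3 complex (-4.05), the methyltransferase METTL18 (-4.02), the co-chaperone DNAJC15 (-3.81), PRR14 (-3.60), the deaminase RIDA (-3.57) and SIGIRR, an inhibitory receptor of the interleukin-1 family (-3.56), completed the group. GATD3 (-4.07) and SULT1A1 (-3.83) have near-identical copies in the genome, so their probe sets cannot be assigned to 1 gene with certainty.

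**Figure D1:**
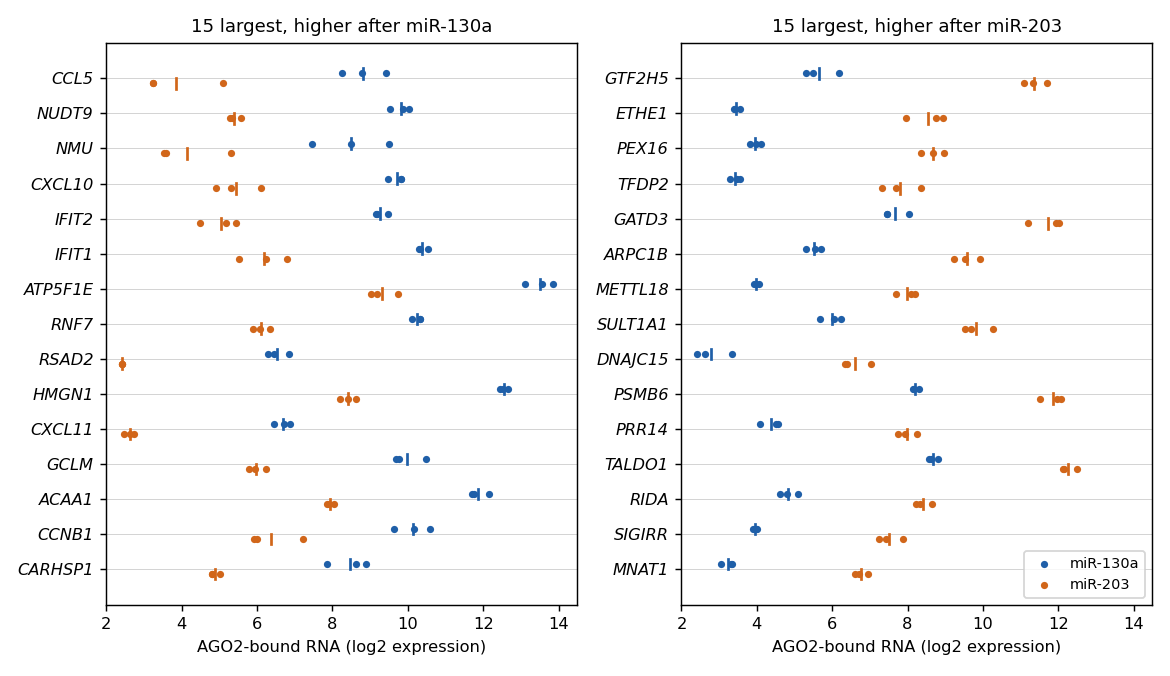
Log2 expression in AGO2-bound RNA for the 15 largest differences in each direction, with a point per array (3 per group) and a vertical tick at each group mean. The groups do not overlap for any of the 30 genes, by the rule that chose them; CCL5 and NMU show the widest spread and HMGN1 and PSMB6 lie at high levels in both groups.

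The scramble arrays took no part in the test and come from a further normalization run, and their AGO2-bound levels serve only to orient the differences. For the 15 genes highest after miR-130a the scramble mean was nearer to miR-203 at 13, and for the 15 genes highest after miR-203 it was nearer to miR-130a at all 15. For NMU and HMGN1, the exceptions, the scramble mean was nearer to miR-130a. Nearer does not mean equal. The scramble mean lay below both groups at 8 of the genes highest after miR-130a and at 5 of those highest after miR-203. At those 5 (ARPC1B, METTL18, SIGIRR, TALDO1 and TFDP2) its gap to the miR-130a mean was smaller than the SD of the scramble arrays. The 8 included CCL5, CXCL10, CXCL11, IFIT1, IFIT2 and RSAD2. For RSAD2 the scramble mean of 2.35 and the miR-203 mean of 2.40 were both near the floor. For IFIT1 the scramble mean was 3.45, against 6.18 after miR-203 and 10.39 after miR-130a.

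Interferon-response genes were higher in AGO2-bound RNA after miR-130a almost throughout the tested part of the list. Of 50 genes in the list, 2 had no named probe set, 12 lay below the filter on dim signal (among them MX1, OAS2 and IFI44L) and 36 were tested. Of these, 31 were higher after miR-130a (86.1%, against 29.1% of all genes), 2 were lower and 3 did not pass; the median difference was 2.51, against 0.04 over all genes. Members can pass the filter through their high level after miR-130a. Without a filter the median over the 48 named members was 1.58, with 32 higher and 1 lower. Over all 11963 genes 1804 were then higher and 1695 lower. With the filter at the 75th percentile 8 members were higher, with a median of 3.02, against 1209 of 3717 genes. Expressed as the median of the list around each gene's mean, the miR-130a arrays read 1.14, 1.56 and 1.25 and the miR-203 arrays -1.31, -0.82 and -1.73. In total RNA 33 of the 36 were higher after miR-130a and none was lower, with a median of 1.40. The AGO2-bound difference exceeded the total RNA difference at 19 members and fell short of it at 4, by the test over 12 arrays (26.0% and 24.8% of all genes).

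Sensors, signalling factors and effectors of the response were among the members that were higher. IFNB1, interferon beta itself, read 7.59, 7.55 and 6.99 after miR-130a and lay at the floor on every miR-203 array, so that its log2 difference of 5.00 is a lower limit. DHX58, a regulator of RNA sensing, had no measured level after miR-203 either and differed by at least 4.49. RIGI, the cytoplasmic sensor of foreign RNA, read 5.79, 6.42 and 6.47 against 2.60, 3.14 and 2.49 (3.48 ± 0.23). IFIH1, the sensor MDA5, differed by 2.66, IRF1 by 2.27 and IRF9, which joins the STAT factors at interferon-responsive genes, by 2.34. ISG15, a ubiquitin-like modifier, read 10.04, 10.17 and 10.29 against 7.24, 7.50 and 6.71. TNFSF10, the death ligand TRAIL, read 6.93, 7.31 and 6.79 against 3.89, 3.32 and 3.07 (3.59 ± 0.23). IFITM3, a membrane protein that blocks viral entry, departed from the list: it read 8.37, 8.35 and 8.38 after miR-130a and 11.53, 12.07 and 11.23 after miR-203. The IFITM3 difference was -3.25 ± 0.20 (adjusted p = 9.18e-06) in AGO2-bound RNA and 0.36 (adjusted p = 0.019) in total RNA. PARP12 was the other exception at -1.04 ± 0.29, with 0.76 in total RNA, and IRF7, IFI35 and IFITM1 did not pass in AGO2-bound RNA, at 0.18, 0.26 and 0.75. The members named in this paragraph other than those already among the largest differences were chosen after their values were seen. Of 15 leukocyte and stromal markers on the array, 10 were at the floor on all 6 arrays, among them PTPRC, CD3D, CD14 and PECAM1. The summed log2 level of that list was 40.2 to 41.6 after miR-130a and 38.5 to 39.1 after miR-203; of its 2 tested members ACTA2 was higher after miR-130a by 1.72 and COL1A1 differed by 0.10. The part of that shift in the interferon result was not tested.

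**Figure D2:**
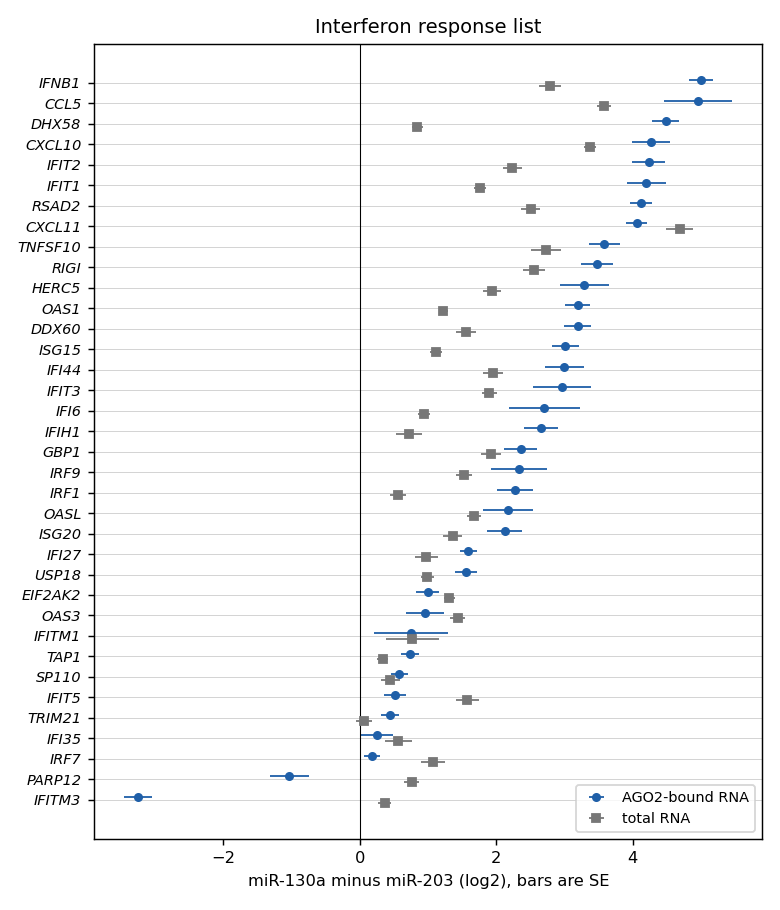
Log2 difference, miR-130a minus miR-203, for the 36 tested members of the interferon-response list in AGO2-bound RNA (circles) and total RNA (squares), with bars of 1 SE (3 arrays per group). Most circles lie to the right of their squares; IFITM3 and PARP12 lie left of 0 in AGO2-bound RNA and right of it in total RNA, and the values of IFNB1 and DHX58 in AGO2-bound RNA are lower limits.

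The promoters of the list were searched for the core of the interferon-stimulated response element, GAAA followed after 2 free bases by GAAA, on either strand, which binds the interferon regulatory factors. The window ran from 250 bases before to 50 bases after the RefSeq start, 300 bases in all. Of 30 tested members with a promoter in the table, 21 (70.0%) held the motif, as did 18 of the 26 that were higher after miR-130a (69.2%), against 169 of 5717 genes tested (2.96%) and 996 of 27305 promoters in the table (3.65%). A match describes the letters and is not evidence of a site. The promoters of CXCL10 (chr4:76023448-76023747, minus strand), IFIT1 (chr10:89392373-89392672, plus strand) and TNFSF10 (chr3:172523381-172523680, minus strand) are shown on GRCh38.p14, 5′ to 3′ on the strand of the gene. They were taken as the 3 with the largest differences among members higher after miR-130a that held a match, so each holds one by choice. Matches are in capitals; they begin 221 bases before the start in CXCL10, 116 and 103 bases before it in IFIT1 and 187 bases before it in TNFSF10, and those of IFIT1 and TNFSF10 are on the opposite strand.
CXCL10: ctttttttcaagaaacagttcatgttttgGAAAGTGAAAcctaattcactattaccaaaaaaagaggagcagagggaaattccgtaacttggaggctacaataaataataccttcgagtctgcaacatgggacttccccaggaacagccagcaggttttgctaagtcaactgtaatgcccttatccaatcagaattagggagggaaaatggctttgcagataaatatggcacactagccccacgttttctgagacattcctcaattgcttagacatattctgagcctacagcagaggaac
IFIT1: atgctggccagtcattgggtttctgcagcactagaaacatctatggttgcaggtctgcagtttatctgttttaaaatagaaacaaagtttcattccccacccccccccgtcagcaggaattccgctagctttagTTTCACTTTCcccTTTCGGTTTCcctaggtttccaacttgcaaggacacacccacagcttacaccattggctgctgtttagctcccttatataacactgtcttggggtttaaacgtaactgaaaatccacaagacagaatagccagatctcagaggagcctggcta
TNFSF10: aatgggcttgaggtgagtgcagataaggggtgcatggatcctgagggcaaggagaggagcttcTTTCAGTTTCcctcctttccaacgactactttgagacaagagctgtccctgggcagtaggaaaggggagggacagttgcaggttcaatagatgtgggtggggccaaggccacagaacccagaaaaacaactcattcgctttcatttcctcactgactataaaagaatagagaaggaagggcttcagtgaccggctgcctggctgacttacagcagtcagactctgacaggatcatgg

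Cell cycle genes were higher after miR-130a as a group in both kinds of RNA. Of 58 genes in the list, all with a named probe set, 56 were tested; 40 were higher in AGO2-bound RNA after miR-130a (71.4%, against 29.1% of all genes), 1 was lower and 15 did not pass, with a median difference of 1.08. In total RNA 50 of the 56 were higher and none was lower, with a median of 1.11. The AGO2-bound difference was above the total RNA difference at 10 members and below it at 9 (17.9% and 16.1%, against 26.0% and 24.8% of all genes). CCNB1 led the list, as given above. CDK1, the kinase that cyclin B activates, read 11.19, 11.84 and 10.88 against 9.78, 8.63 and 8.55 (2.31 ± 0.35, adjusted p = 0.000724). CENPF, a kinetochore protein, read 5.30, 5.35 and 5.40 against 3.89, 2.73 and 3.00 (2.14 ± 0.27). Of its other probe sets, a dimmer one differed by only 0.37 and another lay at the floor. The replication genes MCM7 and RRM1 differed by 1.98 and 1.99, the mitotic motor KIF11 by 1.95 and the checkpoint kinase BUB1B by 1.73. TOP2A, the topoisomerase of dividing cells, read 6.45, 6.38 and 6.34 against 6.13, 4.38 and 4.65, so that 1 miR-203 array came close to the miR-130a arrays.

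That array was miR-203 replicate 1, and it stood apart for the list as a whole. The median of the list around each gene's mean was 0.74, 0.44 and 0.32 on the miR-130a arrays and -0.01, -0.86 and -0.70 on the miR-203 arrays. Without miR-203 replicate 1, 48 members were higher and the median was 1.32. Leaving out miR-130a replicate 1 gave 32 members and a median of 0.96. Leaving out miR-203 replicate 2 gave 32 members and a median of 0.905. The arrays numbered 1 had the highest list median of their group on both sides. Without a filter on dim genes 21 of 58 passed in the same direction, with a median of 1.06, against 1804 of 11963 over all genes. KIF20A, a mitotic kinesin, was the 1 member lower in AGO2-bound RNA after miR-130a (-0.62 ± 0.22, adjusted p = 0.043) and was higher in total RNA (1.62); its call in AGO2-bound RNA was lost when any array other than miR-203 replicate 3 was left out. RRM2, PLK1 and MKI67 did not pass in AGO2-bound RNA, at 0.51, 0.06 and 0.19, against 2.05, 0.75 and 1.14 in total RNA. KIF20A and these 3 genes, with CDK1, MCM7, TOP2A and others of the list, were named after their values were seen. A second element, TTTGAA on either strand (the cell cycle genes homology region), was present in 20 of 48 members with a promoter (41.7%) and in 15 of the 34 that were higher (44.1%), against 515 of 5717 genes tested (9.01%) and 4212 of 27305 promoters (15.4%). CDK1 is shown as the member with the largest difference among those higher after miR-130a that held a match. As for the first motif, a match describes the letters and is not evidence of a site. The CDK1 promoter (GRCh38.p14, chr10:60778081-60778380, plus strand) held the match 161 bases before the start, in capitals below.
CDK1: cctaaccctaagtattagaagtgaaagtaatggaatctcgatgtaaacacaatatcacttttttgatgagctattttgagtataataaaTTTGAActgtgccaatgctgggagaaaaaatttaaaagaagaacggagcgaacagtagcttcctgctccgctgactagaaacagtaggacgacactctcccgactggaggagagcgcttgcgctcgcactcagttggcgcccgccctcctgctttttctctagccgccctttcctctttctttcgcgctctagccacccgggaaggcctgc

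AGO2-bound and total RNA differed in which genes moved. The AGO2-bound difference departed from the total RNA difference at 3444 genes (50.8%), 1763 (26.0%) where it lay above and 1681 (24.8%) where it lay below. Of the 1976 genes higher in AGO2-bound RNA after miR-130a, 544 were also higher in total RNA, 379 were lower there and 1053 were not called. Of the 1744 genes lower in AGO2-bound RNA after miR-130a, 394 were also lower in total RNA, 431 were higher there and 919 were not called. Over all 6782 genes, 22.9% were higher and 20.3% lower in total RNA after miR-130a, and the shares of opposite calls lie near these. The 379 genes had median differences of 0.97 in AGO2-bound RNA and -0.51 in total RNA, and the 431 genes -1.02 and 0.60. Of the 21 genes with at least a 16-fold difference, total RNA agreed in direction at 9, was called the other way at 4 and was not called at 8.

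**Figure D3:**
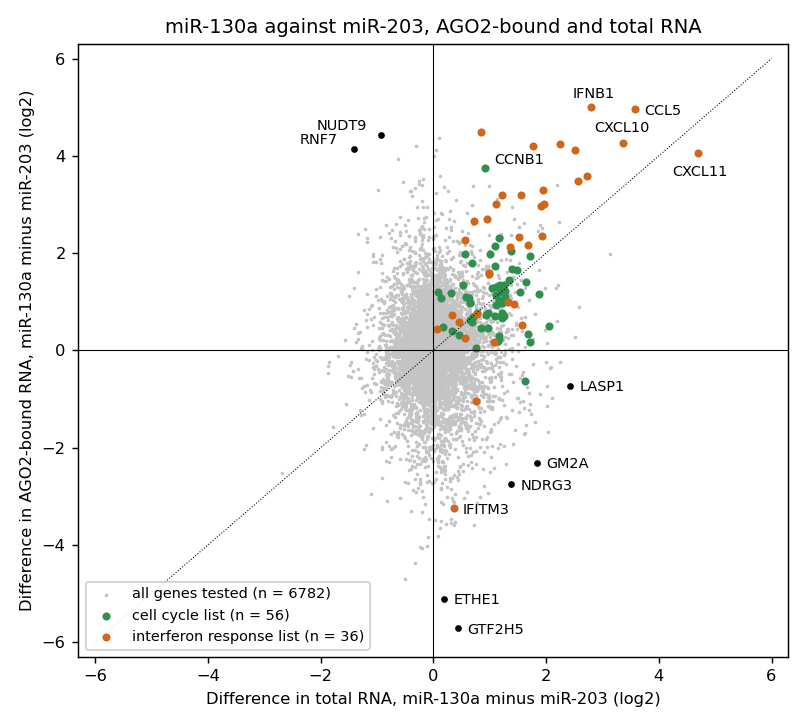
Log2 difference, miR-130a minus miR-203, in AGO2-bound RNA (vertical axis) against total RNA (horizontal axis) for 6782 genes, with the interferon-response list in orange, the cell cycle list in green, further named genes in black and a dotted line of equality. The cloud is taller than it is wide (median absolute difference 0.50 against 0.27); interferon genes lie mostly above the line, cell cycle genes around it, GTF2H5 lies far below with little difference in total RNA (0.45), and RNF7 lies at upper left, with -1.42 in total RNA.

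Transcripts with opposite differences in the 2 kinds of RNA were found in both directions. RNF7 had the largest gap on the side of miR-130a: total RNA read 6.71, 6.38 and 6.65 after miR-130a and 8.12, 7.93 and 7.93 after miR-203, the reverse of its AGO2-bound order, and the AGO2-bound difference exceeded the total RNA difference by 5.55 ± 0.20 (adjusted p = 2.97e-10). RPS6KA5, a kinase that phosphorylates histones, read 7.83, 7.82 and 8.03 against 4.72, 4.36 and 4.72 in AGO2-bound RNA and 3.64, 3.68 and 3.86 against 4.66, 4.72 and 4.75 in total RNA. Its groups did not overlap in either kind of RNA, and the gap was 4.28 ± 0.18. RTN4, the reticulon Nogo, had 1.81 in AGO2-bound RNA and -1.02 in total RNA. It is 1 of 15 genes that passed with at least a 2-fold difference in both, higher in AGO2-bound and lower in total RNA, among them also GTF2H1, REST, ANK3 and INSIG2.

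On the side of miR-203 there were 43 such genes, against 15 on the side of miR-130a. At 2-fold or more, 323 of 6782 genes were higher and 82 lower in total RNA after miR-130a. The same limit gave 831 higher and 743 lower in AGO2-bound RNA. Whether 43 and 15 exceed what these unlike numbers would give was not tested. NDRG3 read 7.70, 7.34 and 7.51 against 10.13, 10.31 and 10.36 in AGO2-bound RNA and 7.58, 7.49 and 7.52 against 6.15, 6.25 and 6.05 in total RNA, a gap of -4.13 ± 0.17. GM2A, the activator protein of ganglioside breakdown, read 5.56, 5.27 and 5.82 against 7.75, 8.12 and 7.72 in AGO2-bound RNA, while total RNA was higher after miR-130a by 1.84; its gap was -4.15 ± 0.27. PRR14 had -3.60 and 0.72. UQCR10, a subunit of respiratory complex III, read 11.00, 11.09 and 10.83 against 13.01, 13.11 and 12.81 in AGO2-bound RNA and 10.23, 10.28 and 10.22 against 9.10, 9.21 and 8.98 in total RNA. The adaptor MYD88, the splicing factor PTBP1 and the proteasome genes PSMD5, PSMD10 and PSMF1 belonged to the same 43. RTN4 and the members listed by name alone were chosen after their values were seen.

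**Figure D4:**
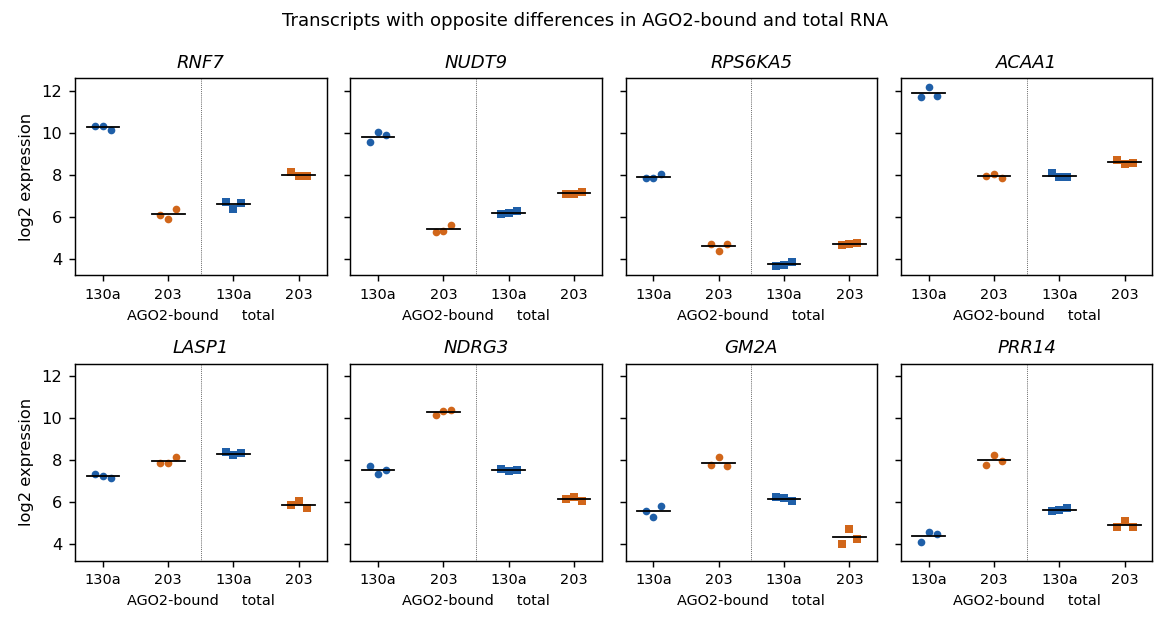
Log2 expression of 8 transcripts with opposite differences in AGO2-bound RNA (circles) and total RNA (squares) after miR-130a (blue) and miR-203 (orange), with a point per array and a line at each mean of 3 arrays. In the upper row AGO2-bound RNA was higher and total RNA lower after miR-130a, and in the lower row the reverse; LASP1 has the smallest AGO2-bound difference, -0.73, and the largest total RNA difference, 2.43.

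A further 5 genes besides IFNB1 and DHX58 had a measured level in only 1 group. TMEM242 read 4.76, 5.70 and 4.96 after miR-130a and lay at the floor after miR-203, a log2 difference of at least 2.75, and FBN1, the extracellular protein fibrillin-1, differed by at least 2.54. A second FBN1 probe set, near the floor, differed by 0.39. MSMB, a protein secreted by prostate epithelium, differed by at least 0.89 and was higher in total RNA by 2.58. ZC4H2, named after its values were seen, differed by at least 0.55. RHPN1-AS1 was the 1 gene measured after miR-203 only, at 3.21, 3.63 and 3.14; it is an antisense gene.

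Genes known as targets of the 2 microRNAs were called in both directions. Of 18 genes listed for miR-130a, 8 were tested: 4 were higher in AGO2-bound RNA after miR-130a, 2 were lower and 2 did not pass (50% and 25%, against 29.1% and 25.7% of all genes), with a median of 0.33. ACVR1, a receptor of the bone morphogenetic proteins, read 7.93, 8.21 and 8.38 against 6.05, 6.40 and 6.33 (1.92 ± 0.16, adjusted p = 3.35e-05), with -0.43 (adjusted p = 0.081) in total RNA. SMAD4, the shared SMAD of TGF-beta signalling, read 6.18, 6.08 and 6.25 against 4.97, 4.92 and 5.07, and total RNA differed by -0.01 (adjusted p = 0.98); a dim second SMAD4 probe set differed by 0.06. For both genes the gap between AGO2-bound and total RNA passed the test, at 2.34 for ACVR1 and 1.19 for SMAD4. DICER1, the enzyme that cuts precursor microRNAs, differed by 0.99 ± 0.23 and RAB5A, a GTPase of early endosomes, by 0.57 ± 0.18. Their total RNA differed by 0.53 (called) and 0.03 (not called), and neither gap passed (0.46 and 0.54). ATXN1 and TSC1 were lower after miR-130a, by -0.78 ± 0.24 and -0.77 ± 0.13. In total RNA ATXN1 was lower too (-1.27, adjusted p = 2.18e-04), and its gap did not pass (0.49, adjusted p = 0.16). ATXN1 was dim, at 2.79 against 3.57, and its second probe set differed by -0.09. For TSC1 total RNA differed by 0.15 (adjusted p = 0.35), and its gap was -0.92. Of 18 genes listed for miR-203, 10 were tested: 3 were higher in AGO2-bound RNA after miR-203, 2 were lower there and 5 did not pass (30.0% and 20%, near the 25.7% and 29.1% of all genes), with a median of -0.17.

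LASP1, an actin-binding protein, was the miR-203 target with the clearest split between the 2 kinds of RNA. It read 7.32, 7.24 and 7.14 against 7.86, 7.87 and 8.16 in AGO2-bound RNA and 8.36, 8.22 and 8.33 against 5.86, 6.04 and 5.73 in total RNA. On the miR-203 arrays LASP1 was therefore higher in AGO2-bound RNA (-0.73 ± 0.14, adjusted p = 0.0025) and lower in total RNA (2.43 ± 0.10, adjusted p = 4.23e-05), and the gap was -3.16 ± 0.18. BANF1, which tethers chromatin to the nuclear envelope, differed by -0.66 ± 0.17 and the kinase SRC by -0.39 ± 0.13. E2F3, a transcription factor of S phase entry, went the other way at 9.40, 9.48 and 9.70 against 8.17, 7.86 and 8.40 (1.39 ± 0.17), as did the kinase ABL1 (0.67 ± 0.14). Among 24 tested genes of microRNA processing and silencing, 6 were higher and 9 lower after miR-130a (25% and 37.5%, against 29.1% and 25.7% of all genes; median 0.06). DROSHA, the nuclear enzyme that cuts primary microRNAs, differed by -1.39 ± 0.26 and by 0.80 in total RNA, while FMR1, an RNA-binding protein found with Argonaute, differed by 1.12 ± 0.16. For FMR1 total RNA differed by 0.60 (adjusted p = 0.072), and the gap did not pass (0.52). RAN, the GTPase of nuclear export, read -0.84 by its brighter probe set and 0.28 by the other.

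Androgen-responsive genes included several that were higher after miR-130a, among them the prostate-specific antigen gene. Of 26 tested, 10 were higher and 3 lower in AGO2-bound RNA after miR-130a (38.5% and 11.5%, against 29.1% and 25.7% of all genes), with a median of 0.08 that was close to the 0.04 of all genes. In total RNA 14 were higher and 1 lower (53.8% and 3.85%, against 22.9% and 20.3%; median 0.48). The AGO2-bound difference lay below the total RNA difference at 11 and above it at 5 (42.3% and 19.2%, against 24.8% and 26.0%). KLK3, which encodes prostate-specific antigen, read 12.48, 12.36 and 12.34 against 11.00, 10.38 and 10.58 (1.74 ± 0.17, adjusted p = 6.9e-05), and a second KLK3 probe set differed by 1.76. KLK2, a related protease, differed by 1.28 ± 0.28, with 1.39 by a second probe set (7.26 against 5.87) and 0.27 by a dim further one. TMPRSS2, a surface protease, differed by 0.44 ± 0.14, and by 1.31 by a second probe set that was bright on these arrays (9.21 against 7.90). In total RNA KLK3, KLK2 and TMPRSS2 were higher after miR-130a by 0.93, 1.63 and 1.31. The gap between AGO2-bound and total RNA was 0.81 for KLK3, did not pass for KLK2 (-0.35) and was -0.87 for TMPRSS2. FKBP5, an androgen-induced co-chaperone named after its values were seen, differed by 0.27 (adjusted p = 0.086) in AGO2-bound RNA and by 2.52 in total RNA. MAF, a transcription factor, differed by 2.24 ± 0.20, but its second probe set, near the floor, read -0.05. Of 26 tested androgen receptor coregulators and partners, 6 were higher and 8 lower (23.1% and 30.8%; median 0.10), with PRMT1, an arginine methyltransferase, at 2.27 ± 0.18 and HDAC1, a histone deacetylase, at -1.59 ± 0.15. Of 9 tested luminal markers 3 were higher and 2 lower, the latter being KRT18 (-0.73) and FOXA1 (-0.69).

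The multi-subunit machines of the cell showed large differences in both directions within 1 complex. Of 62 tested genes of oxidative phosphorylation, 19 were higher and 28 lower in AGO2-bound RNA after miR-130a (30.6% and 45.2%, against 29.1% and 25.7% of all genes; median -0.31). ATP5F1E (4.20) stood at one end and NDUFV1 (-2.24) and UQCR10 (-2.00) at the other; the complex I genes NDUFA1 and NDUFB2 differed by 2.36 ± 0.19 and 2.34 ± 0.14. In total RNA 5 were higher and 21 lower (8.06% and 33.9%, against 22.9% and 20.3%), and the median was -0.18. Mitochondrial ribosomal protein genes were called in both directions, with 15 higher and 14 lower of 44 (34.1% and 31.8%; median -0.12), from MRPS35 at 3.28 ± 0.18 to MRPL4 at -3.48 ± 0.26. MRPS35 read 11.41, 11.74 and 11.18 against 8.31, 7.91 and 8.26, and MRPS22 read 6.16, 6.01 and 6.08 against 9.07, 9.66 and 8.97. In total RNA the 2 genes differed by -0.42 and 0.18. Cytosolic ribosomal protein genes were too, with 15 higher and 13 lower of 50 (30.0% and 26.0%; median 0.09), RPS29 at 1.95 ± 0.13 and RPL36 at -2.71 ± 0.17; in total RNA the medians of the 2 ribosomal lists were -0.07 and -0.15.

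Proteasome genes had more calls towards miR-203 in AGO2-bound RNA and more towards miR-130a in total RNA. Of 30 tested, 9 were higher and 13 lower after miR-130a in AGO2-bound RNA (30.0% and 43.3%; median -0.26), against 9 and 1 in total RNA (30.0% and 3.33%; median 0.14). Over all genes the shares higher and lower were 29.1% and 25.7% in AGO2-bound RNA and 22.9% and 20.3% in total RNA. After PSMB6, the core subunits PSMB4 and PSMB1 differed by -2.21 ± 0.15 and -1.98 ± 0.15, while the core subunit PSMA2 read 9.98, 10.35 and 9.96 against 8.04, 7.96 and 8.12 (2.06 ± 0.15). Endosomal sorting genes had 7 higher and 8 lower of 30 (23.3% and 26.7%; median -0.09), with STAM at -2.21 ± 0.14 and CHMP2B at 0.86; SNX1 read -1.59 and -1.70 by its brighter probe sets and 0.47 by a dimmer one. The COP9 signalosome and prefoldin gave 3 and 3 of 14 (21.4% and 21.4%; median -0.07), led by COPS2 at 1.89 ± 0.18 (1.05 by a second probe set) and COPS6 at -1.65.

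Stress and metabolic lists had calls in both directions, with immediate early genes and cholesterol and fatty acid synthesis leaning towards miR-130a. The shares of calls in each list stand against 29.1% higher and 25.7% lower over all genes. Genes of the amino acid and unfolded protein responses had 13 higher and 6 lower of 33 (39.4% and 18.2%; median 0.25), with the pseudokinase TRIB3 at 1.70 ± 0.14 and PCK2, a mitochondrial enzyme, at -1.59 ± 0.16. Heat shock chaperones had 9 and 5 of 19 (47.4% and 26.3%; median 0.08): DNAJA1 and HSPD1 differed by 2.01 ± 0.14 and 1.59 ± 0.12 and HSPB1 by -1.95, and HSPA9 read 0.95, 0.60 and -0.34 by its 3 probe sets, from the brightest to the dimmest. Second probe sets of DNAJA1 and HSPD1 differed by 1.21 and 2.39. Immediate early genes had 8 and 1 of 19 (42.1% and 5.26%; median 0.26), led by KLF2 at 1.58 ± 0.22. In the p53 pathway 7 were higher and 4 lower of 18 (38.9% and 22.2%; median 0.11). GADD45A, a growth arrest gene, read 10.21, 11.19 and 10.80 against 7.81, 8.04 and 8.10, while PPM1D, a phosphatase that switches p53 off, read 6.34, 6.27 and 6.96 against 9.36, 9.47 and 9.43. The 2 genes differed by 2.75 and -2.90 in AGO2-bound RNA and by -0.58 and -0.20 in total RNA. Oxidative stress genes had 3 and 6 of 18 (16.7% and 33.3%; median -0.22), with GCLM at one end and BLVRB (-2.03 ± 0.20) and GPX4, which reduces lipid peroxides (-1.81 ± 0.17), at the other. Glycolysis had 4 and 6 of 18 (22.2% and 33.3%; median -0.08), from ALDOA at 1.12 to GPI at -1.95, with GAPDH at -1.57 ± 0.15. Cholesterol and fatty acid synthesis had 10 higher and 3 lower of 23 (43.5% and 13.0%; median 0.38), against 16 and 1 in total RNA (69.6% and 4.35%, against 22.9% and 20.3% of all genes; median 0.43); PMVK, of the mevalonate pathway, differed by 2.45 ± 0.18 and -0.49 in total RNA, and HMGCS1 by 1.69 ± 0.23 and 1.12.

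In AGO2-bound RNA, signalling and zinc finger lists had shares of calls near or below those of all genes (29.1% higher and 25.7% lower). RAS, ERK and ERBB genes had 5 higher and 5 lower of 20 (25% and 25%; median 0.16), with the kinase RPS6KA3 at 2.08 ± 0.19 and SPRED2, an inhibitor of RAS signalling, at -1.55 ± 0.20, while total RNA read -0.58 and 0.65 for these genes; in total RNA 8 of the list were higher and 4 lower (40.0% and 20%, against 22.9% and 20.3% of all genes). TGF-beta and BMP genes had 4 and 4 of 21 (19.0% and 19.0%; median 0.08) in AGO2-bound RNA and none higher with 7 lower (33.3%) in total RNA (median -0.37). KRAB zinc finger genes had 15 higher and 8 lower of 54 (27.8% and 14.8%; median 0.12) in AGO2-bound RNA, against 5 and 17 in total RNA (9.26% and 31.5%, against 22.9% and 20.3% of all genes; median -0.15). The gap between the 2 kinds of RNA was called above 0 at 20 and below it at 5 (37.0% and 9.26%, against 26.0% and 24.8%). ZNF430 read 5.58, 5.97 and 6.17 against 3.72, 3.50 and 4.07, and ZNF232 read 5.32, 5.39 and 5.53 against 7.86, 8.06 and 7.47. ZNF443 differed by 2.31 ± 0.16 by its brightest probe set, with its others at the floor.

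**Figure D5:**
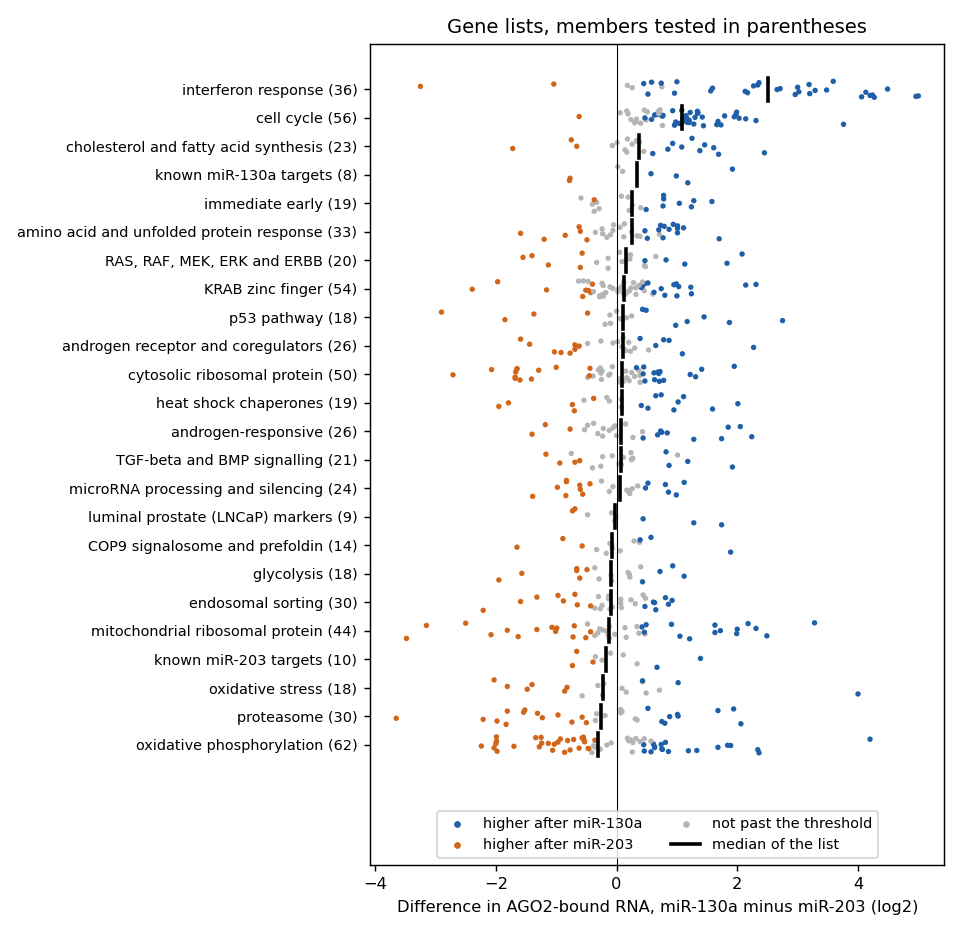
Log2 difference in AGO2-bound RNA, miR-130a minus miR-203, for the tested members of 24 gene lists (number tested in parentheses), a point per gene, with the list's median as a black bar. The interferon-response list (median 2.51) and the cell cycle list (median 1.08) lie to the right, and the other medians lie between -0.31 and 0.38 with members far out on both sides.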

How the data were processed

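AGO2-bound RNA of 6 arrays was compared, with 6 arrays of total RNA as companion. Each probe set has a deposited log2 value, which the authors had normalized; R 2.9.0, GCRMA and RMA appear in the submitters' processing notes without an order. No original step was repeated, and the genome build behind the probe sets is not given in the sources used here. For arrays no depth applies, and their number limits the precision.

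Of 22277 probe sets, 19064 had 1 gene symbol in the platform annotation, 1043 carried more than 1, 2108 stayed without a name here and 62 served as controls; 19052 matched a RefSeq gene. They gave 11963 genes, 4310 of them with several probe sets. Genes under 2.85, the median of all probe set means, were left out, which left 6782. Where all 3 arrays of a group lay within 0.05 of the lowest value, the level counts as not measured and the difference as a lower limit. Promoters and mature microRNAs are RefSeq's, on GRCh38.p14.

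Differences were tested by lmFit and eBayes (limma 3.58.1, R 4.3.3), Benjamini-Hochberg adjusted p under 0.05 over 6782 genes, in 6 AGO2-bound arrays, in 6 total RNA arrays, and as the difference of differences over all 12. On simulated data the AGO2-bound test recovered 23.9% of 1.5-fold, 70.1% of 2-fold and 97.0% of 4-fold differences with 4 false calls. In that simulation 200 of 6782 genes were changed, noise was independent between genes and no offset between normalization runs was added. In the data 3720 genes were called and runs are confounded, so these rates do not carry over to the comparison itself. Same-numbered arrays deviated together in AGO2-bound RNA (correlations of 0.43, 0.13 and 0.49) and not in total RNA (0.08, 0.06 and 0.09), so the numbers pair the AGO2-bound arrays as a property of the data. The rule for named genes took the 15 largest differences each way without overlap between groups, the 5 largest each way lacking a measured level in 1 group, the 5 called members with the smallest p of each list with at least 5 tested, called known targets, the 8 largest gaps each way between AGO2-bound and total RNA, and the 5 largest opposite calls each way. Other members are named where a list's account turned on them, after their values were seen. The lists and members were chosen with earlier results of these data known. Filters, probe set choice, normalization, priors, array weights, arrays in the fit, the replicate block, thresholds and leaving out each array were varied. The AGO2 gene is not analysed here.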

Additional observations from a re-analysis of the deposited data

Results flagged for a closer look

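Effects that differed between the 2 kinds of RNA were singled out by the test over 12 arrays (limma, Benjamini-Hochberg adjusted over 6782 genes), which called 3444 genes. The values are AGO2-bound differences minus total RNA differences, miR-130a minus miR-203, on the log2 scale.

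The AGO2-bound difference lay farthest above the total RNA difference for RNF7 (5.55) and NUDT9 (5.35). It lay above by 4.56 for ACAA1, 4.51 for ATP5F1E, 4.28 for RPS6KA5, 4.26 for NMU, 4.07 for HMGN1 and 3.99 for CYREN, a gene of the repair of DNA ends. CYREN read 10.01, 10.50 and 10.39 against 6.89, 6.79 and 6.84 in AGO2-bound RNA and 6.60, 6.41 and 6.68 against 7.25, 7.13 and 6.91 in total RNA.

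It lay farthest below for GTF2H5 (-6.16) and ETHE1 (-5.30). The values were -4.32 for PRR14, -4.20 for PEX16, -4.15 for GM2A, -4.13 for NDRG3, -4.03 for TFDP2 and -3.97 for TALDO1. For TALDO1 total RNA read 10.48, 10.54 and 10.59 against 10.20, 10.21 and 10.10, the reverse of the AGO2-bound order.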

How the results depend on the processing

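The number of AGO2-bound calls, 3720 of 6782, followed the genes tested and the threshold. With the filter at the 75th percentile it was 2219 of 3717 (1209 higher and 1010 lower after miR-130a), and with the second probe set of genes that have one, 1071 of 2965 (555 and 516); fewer genes were tested in both. At 2-fold or more it was 1574 (831 and 743), and for the difference against total RNA 1818 of 3444 (869 and 949), by a stricter threshold. Leaving out each array in turn gave 3045 to 3462 AGO2-bound calls (1636 to 1855 higher, 1390 to 1607 lower), 2248 to 2877 in total RNA (1260 to 1556 and 988 to 1321) and 3104 to 3483 for the difference (1549 to 1780 and 1525 to 1703). With the replicate number as a block, AGO2-bound calls were 4304 and held all 3720 calls in the same direction; no call of a named gene was lost. Quantile normalization kept 3598 of the calls.

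Named genes kept their direction and side of the threshold in 2761 instances and lost the call in 91, over 38 of 149 genes. The reversals came with other probe sets, most near the floor. With the second probe set, ZNF443 read -0.01, MAF -0.05, SC5D -0.0019, SLC2A1 -0.0019, RAN 0.28, SOS1 -0.02 and SMAD1 0.02; with the median of probe sets, ZNF443 read -0.01, MAF -0.05 and SOS2 -0.06. Signal near the floor limits dim genes, and separate normalization runs remain confounded with the transfections.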
